A study of Rattus norvegicus with 9 samples.

Results

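Genes that mark the fibroblasts of the meninges, the membranes around the brain, were followed across whole-brain RNA from 9 male rats. Of 10 gene names (Slc22a6, Slc6a13, Islr, Col1a1, Col1a2, Col3a1, Fmod, Dcn, Lum and Igfbp6), 9 were found among the 114601 loci of the deposited gene table. A locus counted when its assembled transcripts carried the name on the same strand, and where several did, the locus with the highest mean count was used. Col1a2 was the name without a locus. All 9 loci that were found passed the filter on low counts. The animals were alcohol-naive and untreated. The groups were 3 wild-type Wistar rats from Charles River and rats in which CRISPR/Cas9 had removed 618 bp of Lrap, a long non-coding RNA gene of the brain, from 1 allele (3 heterozygotes) or from each allele (3 homozygotes; line Crl:WI-Lrapem1Geh). The labels give no shared litters between wild types and mutants, so the edited line and the genotype cannot be told apart. The labels number the rats within each genotype, and p-values measure the spread between these rats.

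Meningeal fibroblasts form the pia, the arachnoid and the dura and lay down the fibrillar collagens that give these membranes their strength. Small leucine-rich proteoglycans bind collagen fibrils and set their thickness and spacing. The arachnoid and pial fibroblasts also carry solute transporters, which move organic anions and amino acid transmitters between cerebrospinal fluid, blood and brain. Several of these genes are not restricted to the meninges, because fibroblasts along blood vessels also make collagen and proteoglycans. A library of the whole brain holds whatever membrane stayed on the tissue. In such bulk samples fewer cells of a type and less RNA per cell cannot be told apart.

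Library depth ran from 27489383 to 46975919 expected counts. The deletion was visible in the libraries as labelled: the LRAP isoform that contains a stretch of 618 bp made up 56.3 to 65.6% of its locus among wild types, 36.8 to 42.2% among heterozygotes and 9.89 to 21.8% among homozygotes. Wild-type rat 2 stood apart, with 40.4% of its counts on mitochondrial loci against 14.8 to 28.1% in the other 8 libraries. The relative levels of 99 spike-in loci, RNAs added to the samples, formed a pair of patterns. Wild-type rat 2 and all 3 homozygous rats shared a pattern and the remaining 5 libraries the other, with correlations of at least 0.993 within and at most 0.959 between patterns. The homozygous rats thus shared their pattern with 1 of the 3 wild types. Nothing showed that libraries of a genotype were copies of each other: compared over 27221 loci, pairs of them differed by a chi-square of 27.4 or more per locus.

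As CPM (counts scaled to a common library total with TMM factors), the mean level of each of the 9 genes was higher in both mutant groups than in wild type, while in the authors' TPM (abundance divided by transcript length, with each library summed to the same total and no further rescaling) the mean was higher for 7 of 9 in heterozygotes and 1 of 9, Igfbp6, in homozygotes. Log2 differences called the TPM scale here are those of a limma fit on log2(TPM + 0.1), in which 8 of 9 were above wild type in heterozygotes and 3 of 9 in homozygotes. None of these differences passed the test over all loci. The median of all tested loci was itself shifted on the TPM scale, by a log2 difference of -0.31 in heterozygotes and -0.59 in homozygotes, and relative to it all 9 genes were higher in each mutant group. In homozygotes that margin was only 0.04 for Fmod and 0.05 for Dcn, with an SE of 0.32 each. Against the homozygous median of -0.55 for loci with a gene name, Fmod at -0.55 was level and Dcn at -0.54 nearly so. In the count fit, 44.3% of all tested loci were above wild type in homozygotes and 45.1% in heterozygotes, and 71.4% and 64.8% of those with a gene name. In edgeR's quasi-likelihood fit the median log2 fold change of the 9 genes was 0.71 in homozygous and 0.75 in heterozygous rats against wild type. Over all 16576 tested loci with a gene name it was 0.14 and 0.07, and over all 39057 tested loci -0.07 and -0.04. Homozygous and heterozygous rats were close to each other, with a median of -0.07 for the 9 genes and 3 of 9 above 0, beside 50.7% of all tested loci and 69.5% of those with a gene name.

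At an adjusted p under 0.05, 0 of the 9 genes were called in homozygous against wild-type rats, as were 0.0% of all tested loci. For heterozygous against wild type the count was 0 of 9, where 0.00512% of loci were called higher and 0.00256% lower. For homozygous against heterozygous it was 0 of 9, where 0.00256% were called higher and 0.0% lower. At an unadjusted p under 0.05, edgeR placed 5 of 9 genes higher in homozygous than in wild-type rats (Slc22a6, Slc6a13, Islr, Col3a1 and Igfbp6), beside 4.88% of all tested loci and 1664 of the 16576 with a gene name. In heterozygous rats it placed 6 of 9 higher, the same 5 and Fmod, beside 1.37% of loci and 2.13% of those with a name. None was lower in either comparison, where 4.25% and 2.35% of tested loci were. These comparisons share the wild-type rats. Leaving out 1 library changed the counts: in homozygotes 2 genes were under that p without wild-type rat 1, wild-type rat 2 or homozygous rat 3, and in heterozygotes 2 were without heterozygous rat 3. DESeq2 gave 5 and 6 at the unadjusted p, and 1 and 0 after adjustment.

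**Figure D1:**
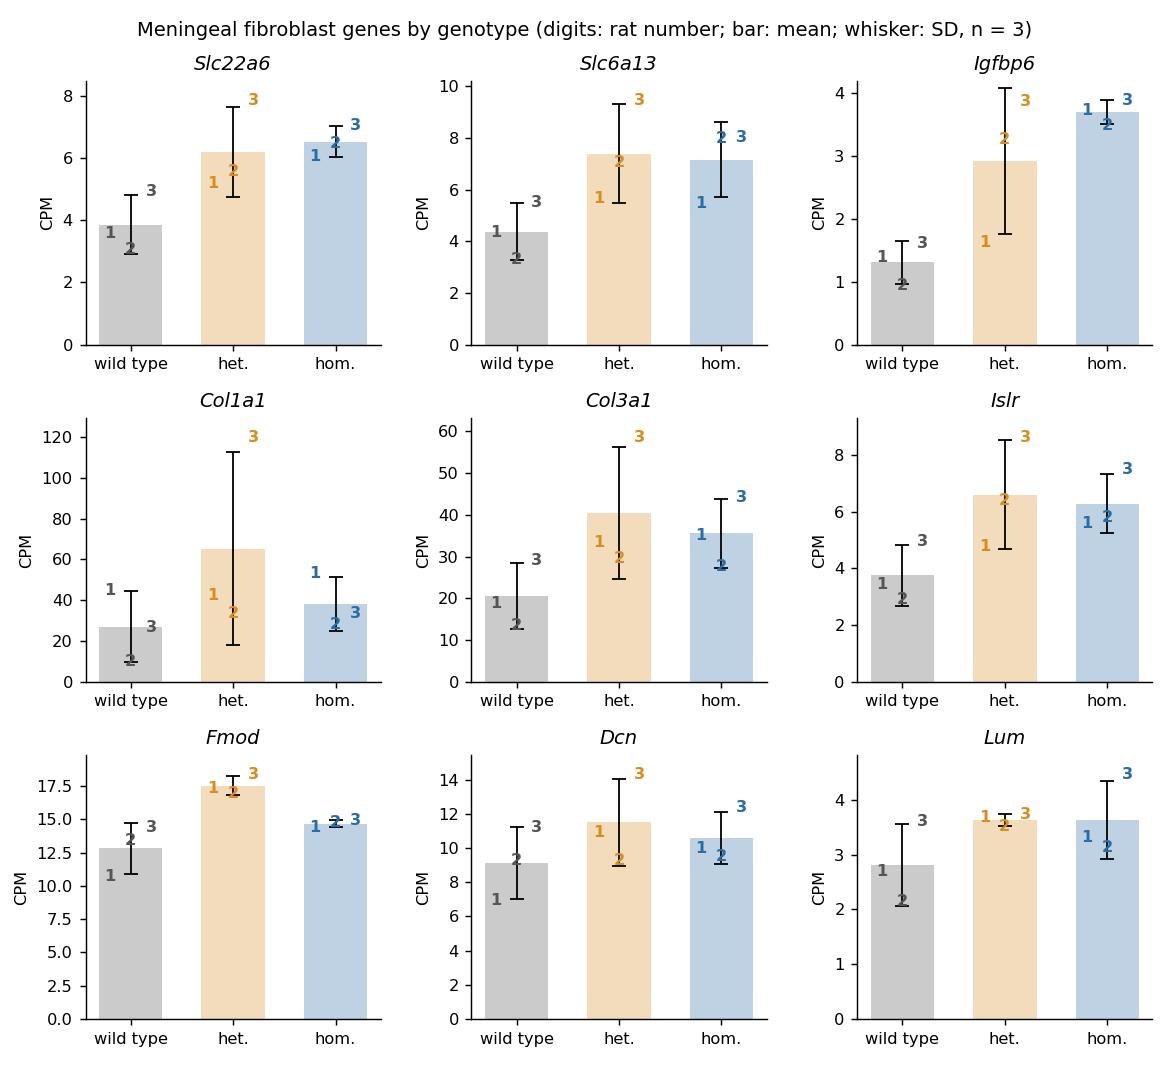
Levels of the 9 genes in CPM (vertical axes, each from 0) for wild-type, heterozygous and homozygous rats. Digits mark rats 1 to 3, bars the mean and whiskers the SD (n = 3). All 6 mutant rats lie above all 3 wild types for Slc22a6, Fmod and Igfbp6 on this scale, whereas on the authors' TPM scale Fmod was lower in homozygous than in wild-type rats by 0.55 on the log2 scale. The median of all tested loci in homozygotes was -0.59 there.

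Slc22a6 encodes the organic anion transporter OAT1, which exchanges anions for dicarboxylates at the cell membrane. Its locus, MSTRG.10491, lies on chromosome 1 from 224824799 to 224833259 on the plus strand (rn6). Wild-type rats 1, 2 and 3 had 3.58, 3.07 and 4.91 CPM, the heterozygotes 5.18, 5.56 and 7.85 and the homozygotes 6.06, 6.48 and 7.05. Every mutant rat was above every wild type, whereas on the TPM scale the groups overlapped. Group means were 3.86 ± 0.951, 6.20 ± 1.45 and 6.53 ± 0.496 CPM (SD, n = 3 each). Against wild type the log2 fold changes were 0.76 (SE 0.24) in homozygotes and 0.68 (SE 0.24) in heterozygotes, with edgeR adjusted p = 0.544 and 0.981. On the TPM scale they were 0.03 and 0.29. A locus on the opposite strand, MSTRG.10489, was at 1.43 to 2.72 CPM, and since no source says whether counting used the strand, reads of these loci cannot be told apart.

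Slc6a13 encodes GAT2, a transporter of GABA and taurine that in the rodent brain is found in the leptomeninges. Its locus, MSTRG.77551, spans chromosome 4 from 153874955 to 153909446 on the plus strand. Rats 1, 2 and 3 gave 4.35, 3.28 and 5.51 CPM among wild types, 5.67, 7.07 and 9.46 among heterozygotes and 5.48, 7.98 and 8.03 among homozygotes. All heterozygotes were above all wild types, whereas homozygous rat 1 was just under wild-type rat 3. The log2 fold change was 0.71 (SE 0.26) in homozygotes and 0.75 (SE 0.26) in heterozygotes (edgeR adjusted p = 0.544 and 0.981), and -0.06 and 0.33 on the TPM scale. The assembly split the gene: MSTRG.77552, from 153910086 to 153913598, also carried its name, with means of 2.64 ± 0.425, 4.10 ± 0.998 and 4.09 ± 0.568 CPM (SD, n = 3 each). At this smaller locus all 6 mutants were above all 3 wild types on the CPM scale, and the groups overlapped on the TPM scale.

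The transporters varied together, with a Pearson r of 0.95 over the 9 libraries (Spearman's rho 0.90) and 0.90 after each genotype was centred on its own mean. Such correlations rest on 9 libraries that share their depth and scaling, and are given as descriptions. The lowest library was wild-type rat 2 and the highest heterozygous rat 3 for both genes.

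Col1a1 encodes the alpha-1 chain of type I collagen, the main fibre of the meninges. Its locus, MSTRG.17270, spans chromosome 10 from 82745801 to 82762789 on the plus strand with 51 exons. Wild-type rats 1, 2 and 3 had 44.6, 9.71 and 26.5 CPM, the heterozygotes 42.6, 33.4 and 120 and the homozygotes 53.3, 27.9 and 33.4. The genotypes overlapped throughout, and the spread came mainly from wild-type rat 2 and heterozygous rat 3, which were 12.3-fold apart. No other gene of the group varied as much: the coefficient of variation over the 9 libraries was 71.8% for Col1a1 and 15.3 to 46.1% for the other 8. The log2 fold change was 0.50 (SE 0.61) in homozygotes and 1.28 (SE 0.61) in heterozygotes (edgeR adjusted p = 0.772 and 0.981). Single libraries moved both: the homozygous value was 0.10 without wild-type rat 2 and 1.06 without wild-type rat 1, and the heterozygous value 0.51 without heterozygous rat 3 and 1.84 without wild-type rat 1.

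Col3a1 encodes type III collagen, which forms thinner fibrils together with type I. Its locus, MSTRG.106348, lies on chromosome 9 from 52023295 to 52059217 on the plus strand. Rats 1, 2 and 3 gave 18.8, 13.5 and 29.2 CPM among wild types, 33.3, 29.6 and 58.5 among heterozygotes and 35.1, 27.6 and 44.1 among homozygotes. The 3 heterozygotes were above the 3 wild types, and homozygous rat 2 was under wild-type rat 3. The log2 fold change was 0.80 (SE 0.31) in homozygotes and 0.98 (SE 0.31) in heterozygotes (edgeR adjusted p = 0.544 and 0.981), and 0.06 and 0.56 on the TPM scale. Without heterozygous rat 3 the heterozygous value was 0.63.

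The name Col1a2, the alpha-2 chain of type I collagen, was not attached to a locus of the assembly. A pair of loci on chromosome 4, both called NEWGENE_621351, was described beside the collagens because RefSeq places Col1a2 directly before LOC102552043, Casd1 and Sgce. The same genes follow MSTRG.72985 (29528959 to 29565282, plus strand), and other genes follow MSTRG.73151 (31533330 to 31569669). These loci were not counted as Col1a2, and reads of near-identical copies may be split between them. Wild-type rats 1, 2 and 3 had 50.7, 17.2 and 28.8 CPM for MSTRG.72985, the heterozygotes 45.1, 60.0 and 130 and the homozygotes 70.1, 47.1 and 62.0. It followed Col1a1 in its lowest and highest library. MSTRG.73151 was at 0.364 to 14.0 CPM with its highest values in wild-type rat 3 and heterozygous rat 1, at 14.0 and 12.9 CPM.

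**Figure D2:**
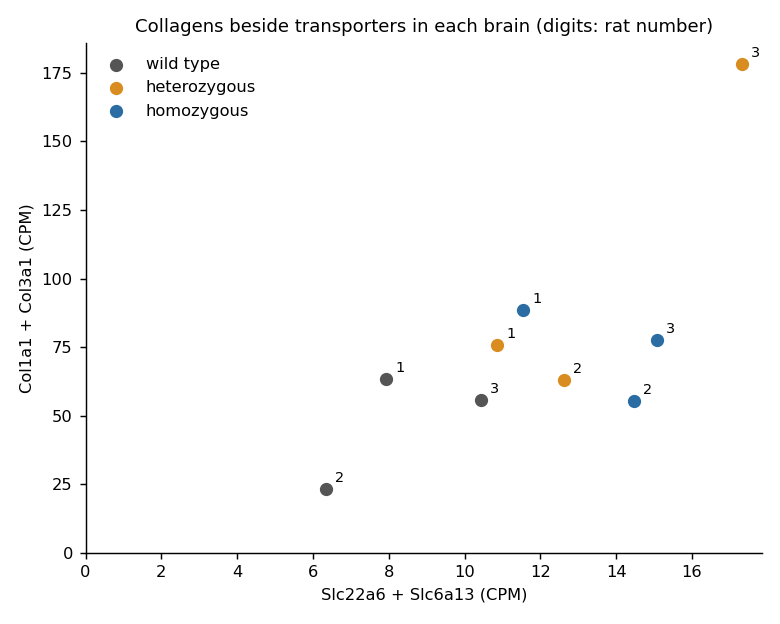
Summed CPM of Col1a1 and Col3a1 (vertical axis) against summed CPM of Slc22a6 and Slc6a13 (horizontal axis). Each point is 1 brain, numbered by rat and coloured by genotype. Wild-type rat 2 is lowest and heterozygous rat 3 highest on both axes, and the other 7 brains lie between 55.4 and 88.4 CPM on the vertical axis.

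Set beside the transporters, the collagens varied within each genotype by more than the genotype means differed. The summed CPM of Col1a1 and Col3a1 over that of Slc22a6 and Slc6a13 was 7.99, 3.66 and 5.34 in wild-type rats 1 to 3. Heterozygotes had ratios of 6.99, 4.99 and 10.3 and homozygotes 7.66, 3.83 and 5.14. The means were 5.66 ± 2.19, 7.42 ± 2.68 and 5.55 ± 1.94 (SD, n = 3 each), so the genotypes overlapped and their means lay within 1 SD of each other. Because CPM is not divided by length, long collagen transcripts weigh more in it. In TPM the ratio was 1.71 ± 0.563, 2.21 ± 0.766 and 1.71 ± 0.610. With the NEWGENE_621351 loci added to the collagens, a choice made after seeing the data, the CPM ratio was 10.1, 13.4 and 10.1. The 4 collagen and transporter pairs had a median r of 0.77 over the 9 libraries and of 0.17 without wild-type rat 2 and heterozygous rat 3. Leaving these libraries out took the r of Col1a1 with Slc22a6 and Slc6a13 from 0.67 and 0.64 to -0.26 and -0.56. For Col3a1 it went from 0.94 and 0.87 to 0.84 and 0.60. The r of Col1a1 with Col3a1 went from 0.79 to -0.04 in the same step.

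Fmod encodes fibromodulin, a small leucine-rich proteoglycan that binds type I collagen fibrils. Its locus, MSTRG.26536, spans chromosome 13 from 50873605 to 50885582 on the plus strand. Rats 1, 2 and 3 gave 10.7, 13.4 and 14.4 CPM among wild types, 17.3, 16.9 and 18.4 among heterozygotes and 14.4, 14.7 and 14.9 among homozygotes. The 3 genotypes did not overlap on this scale, with the heterozygotes highest, and the gap between homozygous and wild-type rats was narrow. Group means were 12.8 ± 1.90, 17.5 ± 0.736 and 14.7 ± 0.246 CPM (SD, n = 3 each). Against wild type the log2 fold change was 0.19 (SE 0.16) in homozygotes and 0.45 (SE 0.16) in heterozygotes, and -0.26 (SE 0.16) between homozygotes and heterozygotes (edgeR adjusted p = 0.657, 0.981 and 1.0). The homozygous value was 0.079 without wild-type rat 1 and 0.32 without wild-type rat 3. In CPM, Fmod was the only member whose homozygous and heterozygous rats did not overlap, where 4.12% of tested loci and 1.89% of those with a gene name were lower without overlap. In TPM the homozygotes were below the heterozygotes without overlap for Fmod and for Dcn. The share of loci so separated in TPM was not computed, and the median of all tested loci on the TPM scale was -0.27 between these groups. For Fmod the TPM-scale difference from wild type was 0.04 in heterozygotes and -0.55 in homozygotes.

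Dcn encodes decorin and Lum lumican, a pair of proteoglycans that bind collagen fibrils and limit their growth. They are neighbours on the plus strand of chromosome 7, Dcn (MSTRG.94040) at 38742051 to 38782323 and Lum (MSTRG.94039) at 38819771 to 38826862, with 37.4 kb between them. Wild-type rats 1, 2 and 3 had 6.93, 9.27 and 11.2 CPM for Dcn, the heterozygotes 10.9, 9.29 and 14.3 and the homozygotes 9.95, 9.52 and 12.4. Its groups overlapped, and its log2 fold changes against wild type were 0.22 (SE 0.22) in homozygotes and 0.33 (SE 0.22) in heterozygotes (edgeR adjusted p = 0.728 and 0.981). The homozygous value was 0.052 without wild-type rat 1 and 0.42 without wild-type rat 3, and the heterozygous value 0.16 without heterozygous rat 3 and 0.54 without wild-type rat 3. Rats 1, 2 and 3 gave 2.69, 2.13 and 3.61 CPM for Lum among wild types, 3.67, 3.52 and 3.73 among heterozygotes and 3.32, 3.13 and 4.45 among homozygotes. Its groups overlapped as well, with log2 fold changes of 0.37 (SE 0.25) in homozygotes and 0.37 (SE 0.25) in heterozygotes (edgeR adjusted p = 0.593 and 0.981). Both were 0.21 without wild-type rat 2 and 0.63 without wild-type rat 3. On the TPM scale the homozygous values were -0.54 for Dcn and -0.35 for Lum. Over the 9 libraries these neighbours had an r of 0.67 and a rho of 0.90, and without wild-type rat 2 and heterozygous rat 3 an r of 0.92.

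Islr encodes a secreted and membrane-linked immunoglobulin-domain protein with leucine-rich repeats, known as Meflin, that marks mesenchymal and fibroblast cells. Its locus, MSTRG.101246, lies on chromosome 8 from 62946732 to 62949714 on the minus strand. Both of its assembled transcripts overlap the annotated exons without matching their splicing, so the locus is a less certain match than the others. Wild-type rats 1, 2 and 3 had 3.43, 2.89 and 4.96 CPM, the heterozygotes 4.79, 6.40 and 8.61 and the homozygotes 5.57, 5.80 and 7.50. All homozygotes were above all wild types, and heterozygous rat 1 was just under wild-type rat 3. The log2 fold changes were 0.74 (SE 0.27) and 0.81 (SE 0.27) in homozygotes and heterozygotes (edgeR adjusted p = 0.544 and 0.981), and -0.02 and 0.38 on the TPM scale.

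Igfbp6 encodes insulin-like growth factor-binding protein 6, which binds IGF-II in preference to IGF-I. Its locus, MSTRG.98587, lies on chromosome 7 from 143749221 to 143754054 on the plus strand. Rats 1, 2 and 3 gave 1.38, 0.937 and 1.60 CPM among wild types, 1.63, 3.25 and 3.86 among heterozygotes and 3.71, 3.49 and 3.88 among homozygotes. All mutants were above all wild types on this scale, but heterozygous rat 1 lay by the wild types and the other 5 mutants lay together above them. Group means were 1.31 ± 0.340, 2.91 ± 1.16 and 3.69 ± 0.196 CPM (SD, n = 3 each). Its log2 fold change of 1.49 (SE 0.33) in homozygotes was the largest of the 9 genes, and in heterozygotes the value was 1.15 (SE 0.33) (edgeR adjusted p = 0.544 and 0.981). On the TPM scale these were 0.68 and 0.64, and there too all 3 homozygotes were above all 3 wild types, at 1.52 to 1.59 against 0.64 to 1.26 TPM. Igfbp6 was the only member to pass under any alternative, in homozygous against wild-type rats and in the slope per deleted allele with DESeq2 (adjusted p = 0.0304 and 0.0305). An edgeR fit with the spike-in pattern as a covariate, added after seeing the data, gave an adjusted p of 0.0412, but there the homozygotes are compared with wild-type rat 2 alone. Over all alternatives the adjusted p of its homozygous against wild-type difference lay between 0.0304 and 0.952. It was also the member with the fewest expected counts, 36 in wild-type rat 2, while the most were the 4560 of Col1a1 in heterozygous rat 3.

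Islr and Igfbp6 varied together over the 9 libraries (r = 0.91, and 0.86 with each genotype centred), the closest pair among the 4 members with an entry in the RefSeq promoter table (Islr, Fmod, Lum and Igfbp6, of 9 looked for). For that reason the 150 bases before their annotated starts are shown, read 5′ to 3′ on the strand of the gene in RefSeq's GRCr8 build, with E-boxes in capitals.
Igfbp6 (chr7:135154769-135154918, plus strand): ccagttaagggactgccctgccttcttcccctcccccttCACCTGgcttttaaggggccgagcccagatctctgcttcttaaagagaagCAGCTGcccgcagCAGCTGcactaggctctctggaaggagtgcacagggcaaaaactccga
Islr (chr8:67469259-67469408, minus strand): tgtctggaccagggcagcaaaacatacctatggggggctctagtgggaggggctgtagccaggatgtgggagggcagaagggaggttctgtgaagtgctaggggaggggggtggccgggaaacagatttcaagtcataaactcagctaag
Both stretches were rich in G and C, at 58.0% for Igfbp6 and 56.7% for Islr. The motifs searched on both strands were the TATA box (TATAAA), the CCAAT box (CCAAT), the GC box (GGGCGG) and the E-box (CANNTG), which do not overlap in these windows. Of 33469 promoter stretches of this length, 8.0% held a TATA box, 23.5% a CCAAT box, 26.0% a GC box and 46.6% an E-box. The Igfbp6 window held 3 E-boxes, beginning at positions -111, -61 and -48 from the start, and none of the other motifs. The Islr window held none of the 4. The Fmod window held 1 GC box at -85 and the Lum window 1 CCAAT box at -130.

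**Figure D3:**
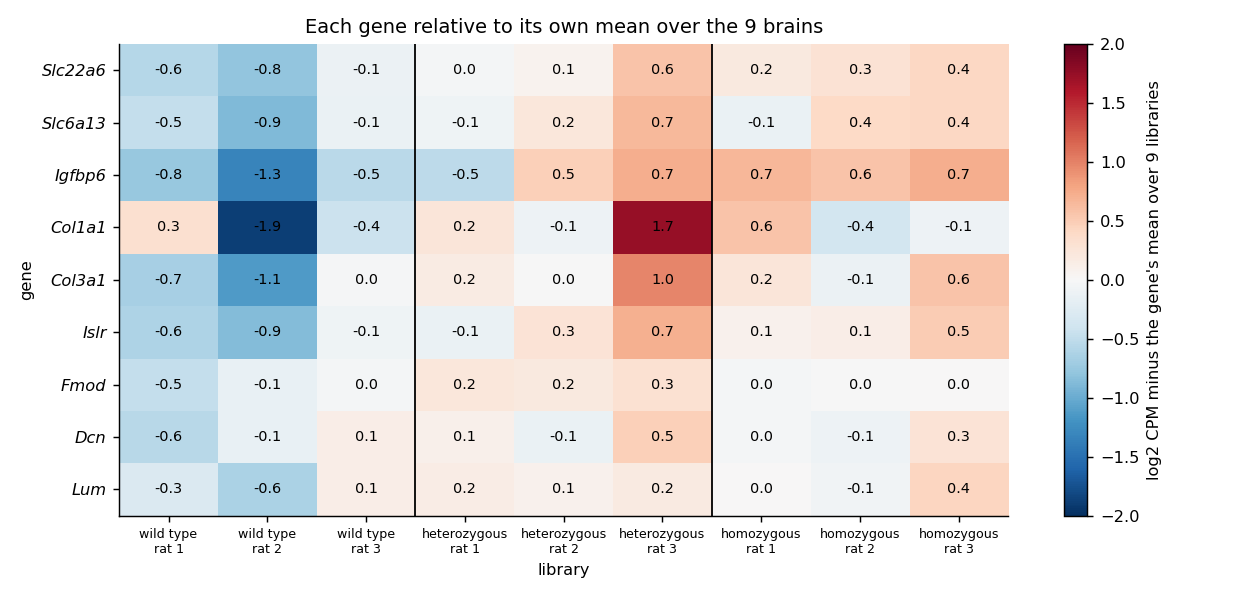
Level of each gene (vertical axis) in each library (horizontal axis) as log2 CPM minus the gene's own mean over the 9 libraries, with the value printed in each cell and lines between genotypes. Wild-type rat 2 is the lowest library for 7 genes and heterozygous rat 3 the highest for 7.

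The order of the genotype means was wild type, heterozygous, homozygous for Slc22a6 and Igfbp6. For the other 7 genes (Slc6a13, Islr, Col1a1, Col3a1, Fmod, Dcn and Lum) it was wild type, homozygous, heterozygous, and for 6 of the 7 the mutant groups overlapped in CPM, Fmod being the exception. Homozygous rats did not overlap wild-type rats on the higher side for 4 of 9 genes (Slc22a6, Islr, Fmod and Igfbp6), beside 7.29% of all tested loci and 14.5% of those with a gene name. Heterozygous rats did so for 5 of 9 (Slc22a6, Slc6a13, Col3a1, Fmod and Igfbp6), beside 2.69% and 3.75%. All 6 mutants were above all 3 wild types for 3 of 9 (Slc22a6, Fmod and Igfbp6), beside 1.27% and 2.29%. In TPM the higher side of Igfbp6 in homozygotes was the only such separation from wild type, and Fmod was lower in homozygotes without overlap, at 1.80 to 2.00 against 2.26 to 3.42 TPM. On the TPM scale 17594 of 39057 tested loci were lower in homozygotes than in wild type at an unadjusted limma p under 0.05. The share without overlap in TPM was not computed. A slope per deleted allele gave log2 values from 0.10 per allele for Fmod to 0.73 for Igfbp6. Without wild-type rat 1 it was 0.014 for Fmod and 0.015 for Dcn. At an unadjusted edgeR p under 0.05, 4 of 9 genes had a positive slope, beside 5.76% of tested loci and 1983 of the 16576 with a gene name. That count was 2 of 9 without wild-type rat 1, wild-type rat 2 or homozygous rat 3. After adjustment 0 of 9 passed in edgeR, as did 0.0% of loci, and 1 of 9, Igfbp6, with DESeq2.

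Wild-type rat 2 was the lowest library for 7 of the 9 genes, all but Fmod and Dcn, which were lowest in wild-type rat 1. This library was also the lowest for 50.0% of tested loci with a gene name and 24.5% of all. Heterozygous rat 3 was the highest library for 7 of the 9 genes, all but Lum and Igfbp6, which were highest in homozygous rat 3. It was the highest library for 8.75% of loci with a gene name. Without wild-type rat 2 the median log2 fold change of the 9 genes was 0.54 in homozygotes and 0.58 in heterozygotes, and without heterozygous rat 3 it was 0.51 in heterozygotes. All 9 were above 0 in each of these count fits.

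Within the spike-in pattern shared by wild-type rats 1 and 3 and the heterozygotes, the heterozygous mean was above the wild-type mean for 9 of 9 genes. All 3 heterozygotes were above both wild types for 5 of them (Slc22a6, Slc6a13, Col3a1, Fmod and Igfbp6). Within the other pattern the only wild type was rat 2, and all 3 homozygotes were above it for 9 of 9 genes. That comparison has 1 wild-type animal and no replicate check. Wild-type rat 2 was the lowest of the 9 libraries for 50.0% of tested loci with a gene name and 24.5% of all. Shares over all loci were not computed for the counts within a pattern.

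**Figure D4:**
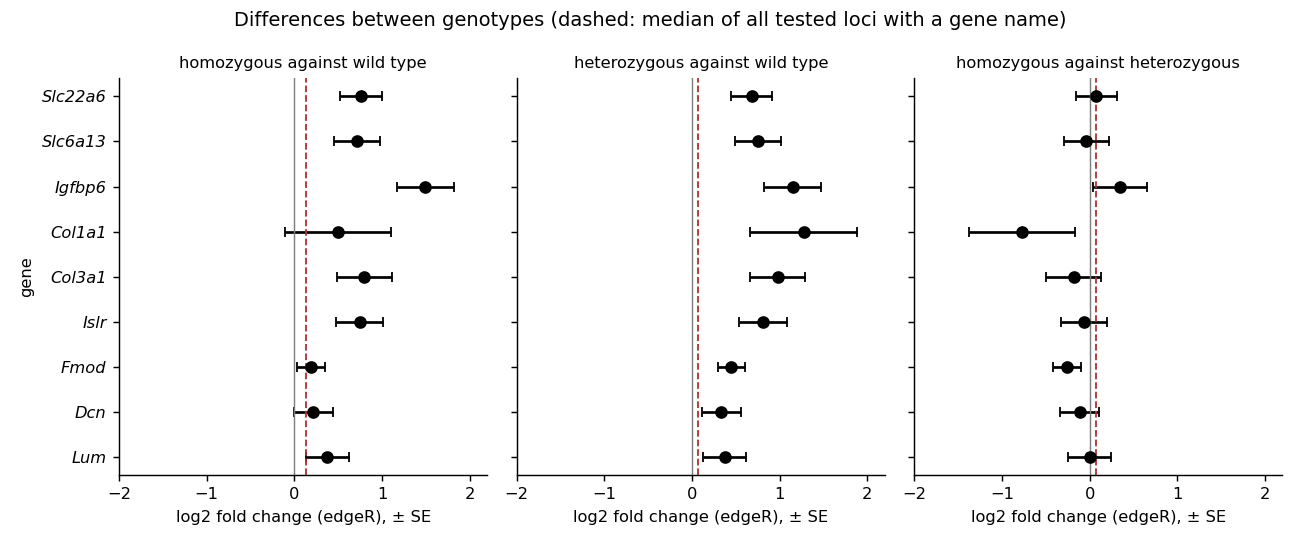
Log2 fold change from edgeR with its SE (horizontal axes) for each gene (vertical axis) in the 3 comparisons, with the median of tested loci that carry a gene name as a dashed line. Values run from 0.19 to 1.49 in homozygous and from 0.33 to 1.28 in heterozygous rats against wild type, and from -0.77 to 0.34 between mutant groups. On the TPM scale 6 of the first set and 1 of the second were below 0.

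The 36 pairs of the 9 genes had Pearson r from 0.40 to 0.97 over the 9 libraries, with a median of 0.73, and of 0.62 with each genotype centred. Slc22a6, Slc6a13, Islr and Igfbp6 formed a tight set, with r from 0.87 to 0.97. Col3a1 was about as close to Slc22a6 (0.94), Slc6a13 (0.87) and Islr (0.94), and less close to Igfbp6 (0.79). The 4 pairs of a transporter with Islr or Igfbp6 had a median r of 0.94, and of 0.88 without wild-type rat 2 and heterozygous rat 3. The loosest pairs were those of Col1a1 with Fmod and Dcn, at 0.40 each. The median for collagens with proteoglycans was 0.63, and for proteoglycans with each other 0.67.

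Levels were compared between genes per unit of length, as the authors' TPM. The mean over the 9 libraries was 3.64 ± 2.10 TPM for Col1a1, 3.38 ± 1.07 for Col3a1, 3.13 ± 0.820 for Dcn, 2.58 ± 0.734 for Fmod and 2.52 ± 0.743 for Slc6a13 (SD, n = 9). It was 1.40 ± 0.448 for Islr, 1.38 ± 0.543 for Igfbp6, 1.25 ± 0.312 for Slc22a6 and 0.918 ± 0.260 for Lum. The upper 5 and lower 4 were separated, since Slc6a13 was above Islr in 9 of 9 libraries, and Slc22a6 was above Lum in 9 of 9. Col1a1 was above Col3a1 in 4 of 9, Islr above Igfbp6 in 5 and Igfbp6 above Slc22a6 in 5, so these neighbours did not differ beyond their spread.

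Of the 9 loci, 4 were assembled with more than 1 isoform, and the share of each isoform is the authors' percent of the locus. The Dcn isoform that matches the annotation took 60.9 ± 3.72% among wild types, 64.9 ± 5.79% among heterozygotes and 70.6 ± 2.05% among homozygotes (SD, n = 3 each). The homozygous values, 68.8, 72.8 and 70.1%, were above the wild-type values of 64.6, 60.9 and 57.2%. For Fmod the annotated isoform was the minor one, at 9.98 to 26.4% in all libraries. Wild-type rat 2 stood apart for the other loci: the shorter Islr isoform took 40.7% there against 72.5 to 97.1% elsewhere, and the annotated Slc22a6 isoform took 58.6% against 75.6 to 85.8%. The annotated Slc22a6 isoform was also above wild type in homozygotes, at 83.7, 85.8 and 80.2% against 79.9, 58.6 and 76.2%. Another Slc22a6 isoform was lower there, at 0.0, 2.66 and 1.46% against 7.66, 6.90 and 2.85%. No test was made of these shares, and how many of all isoforms separate in this way was not computed.

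Other genes of collagen biology were described from lists chosen with earlier results of these data known. The directions given for the 11 lists are those of the count fit, because as log2(TPM + 0.1) the medians of 11 of 11 were below wild type in homozygotes, at -0.70 to -0.16 where all tested loci had -0.59, and of 6 of 11 in heterozygotes, at -0.27 to 0.11 where all loci had -0.31. List counts at an unadjusted p stand beside 4.88% of all tested loci and 1664 of the 16576 with a gene name in homozygotes, and 1.37% and 2.13% in heterozygotes. Of 17 other collagen chains, 7 were higher in homozygous than in wild-type rats at an unadjusted edgeR p under 0.05 and 0 lower, with a median log2 fold change of 0.54. In heterozygotes 4 were higher and the median was 0.46. None passed after adjustment in any list named here. Col6a3, a chain of the beaded-filament type VI collagen, was at 8.13 ± 2.56, 15.7 ± 5.33 and 13.1 ± 2.13 CPM in the order wild type, heterozygous, homozygous (SD, n = 3 each), and Col12a1, which coats collagen fibrils, at 16.7 ± 4.00, 26.4 ± 6.03 and 26.5 ± 3.20. Of 18 genes of collagen folding, crosslinking and trimming, 3 were higher at that p in homozygotes and 2 in heterozygotes, with medians of 0.32 and 0.20. They include Loxl1, a lysyl oxidase that crosslinks matrix fibres, at 1.74 ± 0.168, 2.96 ± 0.533 and 3.33 ± 0.877 CPM. Loxl3, of the same family, was at 2.11 ± 0.389, 2.71 ± 0.163 and 3.16 ± 0.321. Of 9 genes of collagen breakdown, 1 was higher in homozygotes, near the share of all named loci, and 2 in heterozygotes. Mrc2, a receptor that takes up collagen fragments, was at 8.91 ± 3.58, 14.5 ± 3.07 and 14.6 ± 2.83 CPM. Mmp14, a membrane-bound collagenase, was at 8.76 ± 2.26, 13.1 ± 3.67 and 12.4 ± 1.97. Of 6 collagen receptors, among them Ddr1 and Ddr2, 0 reached that p in either comparison, with medians of 0.25 and 0.26.

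Other proteoglycans and matrix genes had list medians of 0.42 to 0.54 against wild type. Of 4 tested proteoglycans outside the 9 genes, 2 were higher at an unadjusted p under 0.05 in homozygotes and 2 in heterozygotes. Biglycan (Bgn), closely related to decorin, was at 10.2 ± 2.40, 16.8 ± 2.11 and 15.7 ± 1.37 CPM in the order wild type, heterozygous, homozygous (SD, n = 3 each). Epyc was at or under 0.478 CPM in all libraries. Of 19 other matrix genes, 6 and 7 were higher and 0 lower, with medians of 0.42 and 0.49. Fbln1, which encodes the matrix glycoprotein fibulin-1, was at 14.5 ± 4.34, 26.1 ± 5.78 and 24.8 ± 1.57 CPM. Mfap5, a microfibril protein, was at 0.178 ± 0.107, 0.395 ± 0.0515 and 0.470 ± 0.195. Of 30 further genes known from meningeal fibroblasts, 10 were higher in each mutant group at that p and 0 lower, with medians of 0.36 and 0.44. Aldh1a2, which makes retinoic acid and marks arachnoid and pial fibroblasts, had 10.3, 9.29 and 10.6 CPM among wild types, 14.5, 15.1 and 21.5 among heterozygotes and 13.4, 16.6 and 22.8 among homozygotes. All its mutant values were above all its wild-type values on the CPM scale. Slc16a11, of the monocarboxylate transporter family, was at 1.79 ± 0.281, 3.02 ± 0.901 and 3.94 ± 0.713 CPM.

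Relatives of the transporters and of Igfbp6 had list medians of 0.01 to 0.32 in homozygotes. Of 5 other transporters of GABA, creatine and taurine, 0 were higher at an unadjusted p under 0.05 in homozygotes and 1 in heterozygotes, with medians of 0.32 and 0.29. Slc6a11, a GABA transporter of astrocytes and not the gene counted in heterozygotes, averaged 38.7 ± 21.1 CPM among wild types, 58.7 ± 9.31 among heterozygotes and 48.4 ± 5.87 among homozygotes. Of 6 other organic anion transporters, 1 was higher in each mutant group, with medians of 0.01 and 0.03. That 1 was Slco2b1, at 15.9 ± 1.56, 20.1 ± 0.512 and 21.5 ± 1.53 CPM, whereas Slco1a4 was at 18.8 ± 5.10, 19.1 ± 0.988 and 21.3 ± 5.31. In homozygotes 3 of the 6 were above 0. Slc22a8, of the same family as Slc22a6, was not among them, at 11.3 ± 1.63, 12.9 ± 0.617 and 10.7 ± 0.832 CPM. Of 9 other genes of the insulin-like growth factor system, 1 was higher in homozygotes, also near the share of all named loci, and 2 in heterozygotes, with medians of 0.19 and 0.25. Igfbp2, another binding protein, was at 20.7 ± 4.61, 30.4 ± 7.37 and 30.9 ± 5.82 CPM. Igf2, the growth factor that Igfbp6 binds, was at 67.7 ± 14.3, 92.7 ± 13.8 and 86.2 ± 18.4. Of 16 genes of TGF-beta signalling, a pathway that drives collagen synthesis, 0 reached that p, with medians of 0.24 and 0.26. Tgfbr2 and Ltbp4 had the smallest p, with log2 fold changes of 0.53 (SE 0.27) and 0.54 (SE 0.28) in homozygotes.

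**Figure D5:**
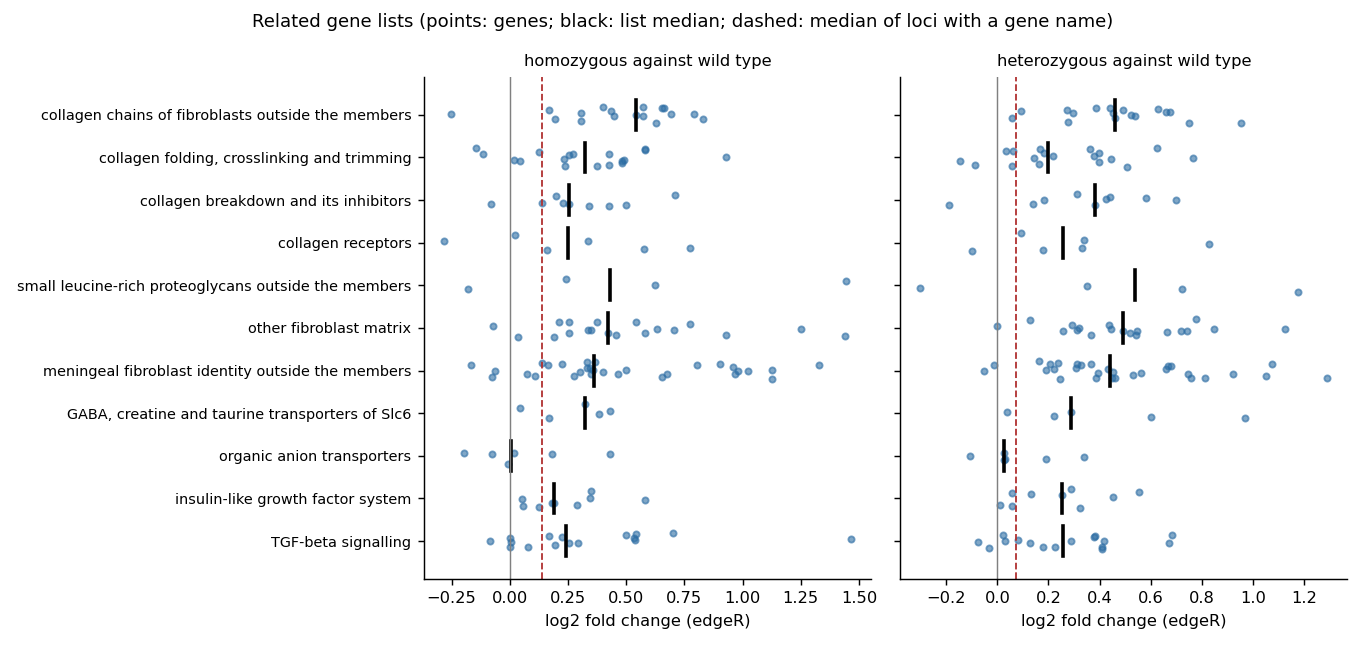
Log2 fold change from edgeR (horizontal axes) of the tested genes in 11 lists of related genes (vertical axis), for homozygous and heterozygous against wild-type rats. Points are genes, black bars list medians and the dashed line the median of tested loci with a gene name. List medians run from 0.01 for organic anion transporters to 0.54 for other collagens in homozygotes, whereas on the TPM scale all 11 were below 0 there.

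Markers of other cells and tissues that could travel with the membranes were summed per library. Mural cell markers, of which 11 of 11 had a locus, summed to 67.9 to 141 CPM among wild types, 120 to 142 among heterozygotes and 132 to 147 among homozygotes, with wild-type rat 2 lowest. For endothelium (10 of 11) the ranges were 119 to 219, 196 to 214 and 188 to 217 CPM, and for border macrophages (7 of 8) 9.64 to 11.4, 11.4 to 16.0 and 9.20 to 16.8. For bone and muscle (8 of 11, with Ckm and Myl1 at 0 in some libraries) they were 5.23 to 9.34, 8.41 to 14.5 and 11.4 to 12.2 CPM. The homozygous sums were thus above the wild-type ones, but the genes were mixed, with 3 of 5 tested above 0 in homozygotes. Bglap, a low gene, was at 0.844 CPM in wild-type rat 1, 1.97 in heterozygous rat 3 and 0.310 in homozygous rat 1. It was at most 0.125 CPM elsewhere. Col1a1 was also highest in these libraries, at 44.6, 120 and 53.3 CPM, and a link was not tested. For Schwann cells and nerve roots (6 of 6, Ncmap at 0 in some libraries) they were 23.5 to 38.6, 30.4 to 34.4 and 28.6 to 43.3, and for cerebellar granule cells (6 of 6, Barhl1 at 0 in some) 22.3 to 392, 115 to 194 and 20.5 to 309. Blood markers (8 of 10) ran the other way, with 361 to 691, 246 to 481 and 358 to 379 CPM. At an unadjusted edgeR p under 0.05, 5 of 8 were lower in homozygotes, beside 4.25% of all tested loci and 1.03% of named ones. In heterozygotes 2 of 8 were lower, beside 2.35% and 0.549%. S100a8, S100a9, Ngp and Camp were highest in wild-type rat 1 and next highest in heterozygous rat 3. Choroid plexus markers (12 of 12), another source of Slc22a6, were at 321 to 854, 388 to 611 and 364 to 615 CPM, with the highest value in wild-type rat 2. In the count fit 1 of these 12 was above wild type in homozygotes, with a median log2 fold change of -0.43, beside 44.3% of all tested loci and 71.4% of named ones. Pineal gland markers (6 of 6, 5 of them at 0 in some libraries) reached 95.1 and 98.6 CPM for the second and the third heterozygote and at most 7.07 elsewhere. Pituitary markers (6 of 9; Gh1, Prl and Tshb at 0 in some) summed to 1.20 to 7.25 CPM in all libraries. The part of these tissues in the differences of the 9 genes was not tested.

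The loci whose levels over the 9 libraries were most like the mean pattern of the 9 genes were Fbln1 (Pearson r = 0.983), Mmp14 (0.982), Col6a3 (0.981), Fcgrt (0.979), Masp1 (0.978), Thbs2 (0.978), Bmp6 (0.974) and Kank2 (0.971). Wild-type rats 1, 2 and 3 had 13.9, 10.4 and 19.1 CPM for Fbln1, the heterozygotes 21.6, 24.0 and 32.6 and the homozygotes 24.5, 23.4 and 26.5. Its lowest and highest libraries were those of most of the 9 genes, which its choice by likeness over the same libraries makes likely. Most like the collagens were Col6a1 (0.965), Thbs2 (0.960), Neu3 (0.951), Col6a3 (0.944) and Fn1 (0.937). Most like the transporters were Col12a1 (0.994), Idh2 (0.981), Tcn2 (0.978), Rab20 (0.976) and Lyl1 (0.975). Col12a1 is thus a collagen gene that followed the transporters, with 15.2, 13.7 and 21.2 CPM among wild types, 20.9, 25.3 and 32.9 among heterozygotes and 23.0, 27.1 and 29.3 among homozygotes.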

How the data were processed

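Expected counts per locus, which RSEM estimates and which need not be whole, were deposited by the authors together with TPM and, per isoform, the percent of the locus assigned to it. The submitters' processing notes name cutadapt, HISAT2, StringTie and RSEM, with rn6 as the build. For their versions, order and strand setting, the sources used here give nothing. Per the labels' protocols, ribosomal RNA was depleted and stranded paired-end libraries were made. Between the deposited table and the libraries' own files 0 expected counts differed, and 0 columns were unused. Library sizes and tests exclude the 99 spike-in loci.

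After rounding, 39057 of 114601 loci passed filterByExpr and were fitted over all 9 libraries with TMM factors and edgeR's robust quasi-likelihood test (edgeR 4.0.16, R 4.3.3; common coefficient of variation 0.277), with Benjamini-Hochberg adjustment over all tested loci and a threshold of 0.05. Other settings tried were size factors, filters, DESeq2 1.42.0, limma-voom (limma 3.58.1), limma on log2(TPM + 0.1), the compared groups alone, the replicate number as a block, summed loci and leaving out each library. The steps were tested on simulated data. The members and lists were chosen with earlier results of these data known. The genes named are the 9 members, the 2 genes of smallest homozygous against wild-type p in each list that is no marker list, and the loci most like the members in log2(CPM + 0.5), 8 for all members and 5 each for the collagens and transporters. Of these, 1 gene is not reported here. Markers of other tissues are given as summed CPM, with counts from the edgeR fit for some of the lists. The NEWGENE_621351 loci were chosen after their values were seen.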

Additional observations from a re-analysis of the deposited data

Results flagged for a closer look

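Loci outside the 9 genes carried signal, and their values are given without a test. The NEWGENE_621351 loci also entered a version of the collagen to transporter ratio. The locus MSTRG.10489, opposite Slc22a6, had a median of 1.98 CPM over the 9 libraries, above a count of 0 in each. The NEWGENE_621351 loci had medians of 50.7 CPM (MSTRG.72985) and 1.43 CPM (MSTRG.73151), and the larger of these is near the level of Col1a1.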

How the results depend on the processing

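Of the fits of single genes against wild type, 188 of 189 alternatives in heterozygotes and 183 of 189 in homozygotes kept the direction. The exceptions came from limma on log2(TPM + 0.1): Slc6a13 -0.064, Islr -0.016, Col1a1 -0.086, Fmod -0.55, Dcn -0.54 and Lum -0.35 in homozygotes, and Dcn -0.075 in heterozygotes. The slope per allele turned negative in the same fit for Slc6a13 (-0.032), Islr (-0.0080), Col1a1 (-0.043), Fmod (-0.28), Dcn (-0.27) and Lum (-0.17), and ran from -0.033 (without wild-type rat 2) to 0.45 for Col1a1 when each library was left out. Homozygous against heterozygous differences kept their sign in 162 of 189 alternatives and changed it in 27, none of them for Fmod or Igfbp6. With a term for the spike-in pattern, an alternative added after seeing the data in which the offset between patterns comes from wild-type rat 2 against wild-type rats 1 and 3, they were 0.55 for Slc6a13, 0.47 for Islr, 1.10 for Col1a1 and 0.64 for Col3a1. The TPM fit gave -0.27 for Slc22a6 and limma-voom 0.0022 for Slc6a13. With each library left out they ran from -0.054 to 0.28 for Slc22a6, -0.22 to 0.17 for Slc6a13, -0.27 to 0.17 for Islr, -1.09 to 0.014 for Col1a1, -0.36 to 0.18 for Col3a1, -0.24 to 0.073 for Dcn and -0.15 to 0.11 for Lum. For Lum, at 0.0019 in edgeR, they were -0.044 with upper-quartile factors, -0.0042 without mitochondrial and the 10 most abundant loci, -0.025 with no filter, -0.032 with at least 1 CPM in 3 libraries, -0.0083 with limma-voom, -0.35 with TPM, -0.010 with the compared groups alone and -0.024 with the replicate block.

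Over all loci, 0, 3 and 1 were called in homozygous against wild-type, heterozygous against wild-type and homozygous against heterozygous rats, and 0 for the slope. With no filter the counts were 6, 5 and 2, with DESeq2 33, 18, 6 and 41 for the slope, and with TPM 3867, 32, 10 and 8157. The spike-in covariate gave 2189, 1, 5 and 1, the first with wild-type rat 2 as the only wild type. The compared groups alone gave 7 in heterozygotes against wild type and 2 between mutants. Requiring 1 CPM in 3 libraries gave 1 in heterozygotes, and RLE factors and limma-voom gave 2 each between mutants. Leaving out each library gave 0 to 5, 1 to 28, 1 to 18 and 0 to 3. The causes were not tested. The replicate number as a block gave 1 call in homozygous against wild-type and 2 in homozygous against heterozygous rats. The deviations of same-numbered rats correlated at -0.18 to 0.40. Rats with different numbers were not compared in this way, so these values cannot tell whether the numbers pair the rats. The collagen to transporter ratio ran from 4.50 to 6.66, 5.99 to 8.64 and 4.49 to 6.40 in wild-type, heterozygous and homozygous rats with each library left out. It was 1.71, 2.21 and 1.71 by TPM, and 10.1, 13.4 and 10.1 with the NEWGENE_621351 loci, which was chosen after seeing the data. Depth limits Igfbp6 and Lum most, with at least 36 and 75 expected counts a library.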
